A study of Mus musculus with 8 samples.

Results

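The chemokines and their receptors were examined in the calf muscle gastrocnemius of mice with serum-transfer arthritis that did or did not receive dipyridamole. Members were chosen by name alone: every symbol in the count tables beginning with Ccl, Cxcl, Ccr, Cxcr or Ackr and a number, plus Cx3cl1 and Cx3cr1. This gave 59 of the 21833 symbols in the tables, 37 of them ligands and 22 receptors. The RA+Dipy group (n = 4) and the RA group (n = 4) were male C57BL/6J mice aged 12 weeks. All of them received pooled serum of arthritic K/BxN mice, 100 µL into the peritoneum on day 0 and again on day 2, and their muscle was taken on day 16. RA+Dipy mice were also given dipyridamole, a blocker of equilibrative nucleoside transport and of several phosphodiesterases, at 25 mg/kg each day from day 0. No source used here names the vehicle given to RA mice, and muscle of mice without arthritis was not analysed here. The genotype label reads K/BxN for these serum recipients, and the treatment label names dipyridamole for all 8 libraries; the groups were taken from the sample titles.

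Chemokines are small secreted proteins that draw leukocytes along a gradient, and they are named for the spacing of cysteines near their N-terminus (CC, CXC or CX3C). They act on G protein-coupled receptors carried mainly by leukocytes, while the atypical receptors (Ackr) bind chemokines without G protein signalling and clear or present them. In inflamed joints and injured muscle, CC ligands such as Ccl2 bring in monocytes through Ccr2, Cxcl5 and its relatives bring in neutrophils through Cxcr2, and the interferon-induced Cxcl9 and Cxcl10 bring in T and NK cells through Cxcr3. Another group, which includes Cxcl12 and Ccl21a, is made without inflammation by stromal and endothelial cells.

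The Cxcl9 and Cxcl10 genes lay 18.6 kb apart on chromosome 5 and were the measured ligands of the interferon-induced class, so the 250 bases before each start are shown. Both come from RefSeq (GRCm38.p6), on the minus strand and written 5′ to 3′, at chr5:92328080-92328329 for Cxcl9 and chr5:92348890-92349139 for Cxcl10. Capitals mark matches, on either strand, to an interferon-stimulated response element (ISRE, searched as GAAA, any 2 bases and GAAA) or to the kappa-B consensus that NF-kappaB binds.
Cxcl9: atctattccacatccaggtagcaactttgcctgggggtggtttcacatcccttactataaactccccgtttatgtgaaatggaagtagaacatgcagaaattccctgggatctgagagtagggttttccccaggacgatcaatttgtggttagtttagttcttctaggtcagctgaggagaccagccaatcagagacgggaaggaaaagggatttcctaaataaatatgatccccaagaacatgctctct
Cxcl10: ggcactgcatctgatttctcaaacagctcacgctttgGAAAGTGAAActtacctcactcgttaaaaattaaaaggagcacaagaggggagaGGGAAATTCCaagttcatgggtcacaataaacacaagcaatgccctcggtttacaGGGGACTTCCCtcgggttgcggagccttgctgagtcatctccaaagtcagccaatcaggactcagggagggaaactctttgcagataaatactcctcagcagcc
The Cxcl10 window held 1 ISRE match, at bases -213 to -204 from the start, and 3 kappa-B matches. These stood at -159 to -150, at -104 to -95 and at -103 to -94, the last of them overlapping. The Cxcl9 window held 0 matches to either, and 0 to the gamma-activated sequence (GAS, searched as TTC, any 3 bases and GAA). Of 32851 such windows in the table, 2.98% held the ISRE, 7.02% the GAS and 7.25% the kappa-B consensus. The table had windows for 45 of the members. Unlike the shares above, which count windows, these count genes with a match in any of their windows. On that count 3 members held the ISRE, 4 the GAS and 11 (24.4%) the kappa-B consensus. Among the 21 of the 45 that were measured here, the ISRE stood before Cxcl10 and Cxcl14, and the kappa-B consensus before Ackr2, Ccl9, Ccr1 and Cxcl10. A match describes the letters of the window and does not show that a factor binds there. Nor do 0 matches to these fixed strings show that a window lacks such sites.

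Library totals were 16.4 to 25.4 M (mega) counts in RA+Dipy and 16.7 to 50.6 M in RA. Fast muscle genes (Myh4, Myh1, Acta1, Ckm, Pvalb, Tnnt3, Atp2a1 and Myl1 together) made up 165336 to 184135 CPM (counts divided by the scaled library total) in RA+Dipy and 164048 to 220901 CPM in RA, the profile of fast muscle that the labelled tissue has. RA+Dipy replicate 1 and RA replicate 4 stood apart from the other 6 libraries. Single fast muscle genes differed there although the sum was high. RA+Dipy replicate 1 had 2117 CPM of Atp2a1 and 46679 of Pvalb, against 19662 to 21923 and 11540 to 14438 in the other RA+Dipy libraries. RA replicate 4 had 1545 CPM of Myl1 and 64431 of Pvalb, against 6788 to 9480 and 11649 to 21475 in the other RA libraries. Over 4757 well-expressed genes, 20.1% in RA+Dipy replicate 1 and 41.5% in RA replicate 4 lay more than 2-fold from the median of all libraries, against 0.0841% to 1.05% in each of the other 6. Of the 28 members measured, RA+Dipy replicate 1 held the highest value for 10 and RA replicate 4 for 8, and RA replicate 4 held the lowest for 7. Results are therefore also given from the 6 other libraries, a choice made after seeing the data.

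A total of 28 members (19 ligands and 9 receptors) passed the filter on low counts, which asks for about 0.409 CPM in at least 4 libraries; the other 31 are treated as not measured. Of the 28, 19 were over that level in all 8 libraries, and 0 were over it in one group's libraries alone. Between RA+Dipy and RA, 0 of the 28 passed an adjusted p of 0.05 in edgeR's quasi-likelihood test, where 0% of the 12755 genes tested passed. The Benjamini-Hochberg adjusted p of the members in that edgeR test ran from 0.882 to 0.993. At an unadjusted p under 0.05 there were 3 members (10.7%), against 3.83% of all genes: Cxcl9 and Cxcl10 with higher means in RA+Dipy and Cxcl5 with a lower one. The groups did not overlap for 1 member, Cxcl10 (3.57% of the 28), against 2.72% of all genes. The log2 fold change of RA+Dipy over RA was above 0 for 19 members (67.9%), against 52.2% of all genes, and its median was 0.27 for the members and 0.02 for all genes. In bulk muscle, fewer cells of a type and less RNA per cell cannot be told apart.

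**Figure D1:**
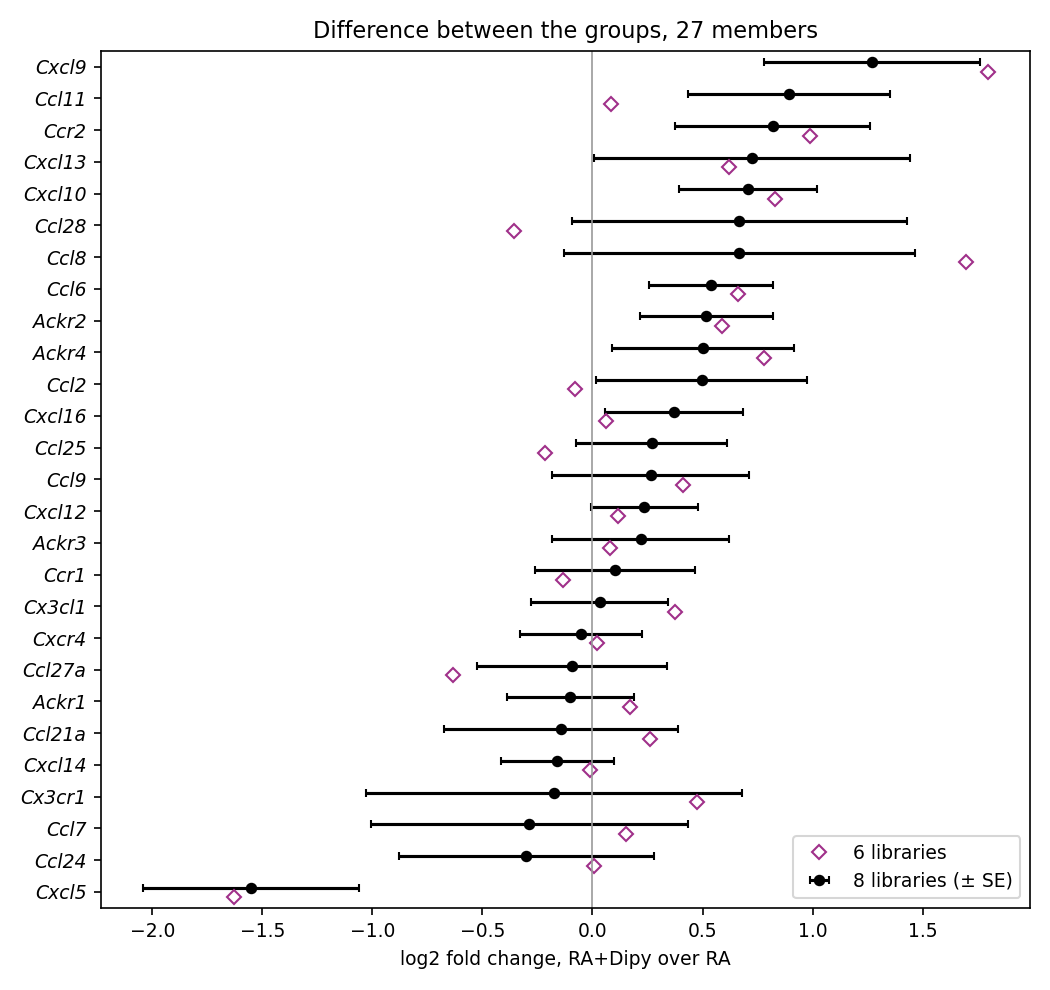
Log2 fold change of RA+Dipy over RA for 27 measured members, in order. Points are the estimates from 8 libraries with their standard error, and open diamonds the estimates from the 6 libraries left without RA+Dipy replicate 1 and RA replicate 4; Cxcl9 at 1.27 and Cxcl5 at -1.55 lie at the ends, and Ccl11 is at 0.89 with 8 libraries and 0.08 with 6.

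Other tests gave the same count with 1 exception. DESeq2 and limma-voom also passed 0 genes, with 740 (5.80%) and 379 (2.97%) genes at an unadjusted p under 0.05, among them 2 and 3 members. limma-voom with library weights, which gave RA+Dipy replicate 1 and RA replicate 4 the lowest weights, passed 133 genes (1.04%), among them Cxcl9 with a log2 fold change of 1.93 and Ccr2 with 1.20 (adjusted p = 0.0339 for each in limma). In that fit 10 of the 28 members and 28.5% of all genes had an unadjusted p under 0.05. From the 6 libraries alone, edgeR passed 0 genes; 7 of 29 members tested (24.1%) had an unadjusted p under 0.05, against 11.4% of all genes. Among these were Ccl6, Ccr2, Cxcl9 and Cxcl10 with higher means in RA+Dipy, and Ccl27a and Cxcl5 with lower ones. In the 6 libraries the groups did not overlap for 5 of the 28 members (17.9%), against 14.1% of all genes. Of these 5, 4 lay higher in RA+Dipy, among them Ccr2, Cxcl9 and Cxcl10, against 7.90% of all genes, and Cxcl5 lay lower, against 6.23%. Without RA replicate 4 alone, 7 of 29 members (24.1%) had an unadjusted p under 0.05, against 4.02% of all genes, among them Ccl6, Ccl8, Ccr2, Cxcl9 and Cxcl10 with higher means in RA+Dipy, and Cxcl5 with a lower one.

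Cxcl9, which is induced by interferon-gamma, had 0.528, 1.77, 1.77 and 2.44 CPM in RA+Dipy replicates 1 to 4, against 0.492, 0.855, 0.391 and 1.1 CPM in RA replicates 1 to 4. RA+Dipy replicates 2 to 4 lay above all 4 RA libraries, while RA+Dipy replicate 1 lay among them. Its means were 1.63 ± 0.798 CPM in RA+Dipy and 0.709 ± 0.327 CPM in RA (SD, n = 4 each), from 163 counts in RA+Dipy and 72 in RA. The log2 fold change was 1.27 (SE 0.49, unadjusted p = 0.0265 in edgeR). It was 1.01 to 1.55 when any 1 library was left out and 1.79 from the 6 libraries.

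Cxcl10, a Cxcr3 ligand induced by type I and type II interferons, had 0.594, 0.886, 0.924 and 0.88 CPM in RA+Dipy, against 0.512, 0.57, 0.43 and 0.507 CPM in RA. All 4 RA+Dipy libraries lay above all 4 RA libraries, by the least in RA+Dipy replicate 1. The means were 0.821 ± 0.153 CPM in RA+Dipy and 0.505 ± 0.0575 CPM in RA (SD, n = 4 each), from 79 counts in RA+Dipy and 59 in RA. Its log2 fold change was 0.71 (SE 0.31, unadjusted p = 0.0468 in edgeR) and 0.83 from the 6 libraries. It was 0.63 to 0.82 when any 1 library was left out. The unadjusted p of Cxcl10 was not under 0.05 with DESeq2, limma-voom, the replicate block or no filter (0.0911 in edgeR). Nor was it without any 1 of RA+Dipy replicates 2 to 4 or RA replicates 1 to 3. Its exons share 133 bases with Art3, a gene on the opposite strand, and the counting did not use strand. Art3 had 151 ± 29.0 CPM in RA+Dipy and 152 ± 63.7 CPM in RA (log2 fold change -0.01), and its part in the Cxcl10 counts was not tested.

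Ccl5, a CC ligand made by T and NK cells among others, did not pass the filter and was singled out after its values were seen. It had 8, 10, 9 and 7 raw counts in RA+Dipy replicates 1 to 4, against 0, 2, 2 and 1 in RA replicates 1 to 4. Every RA+Dipy library lay above every RA library. In CPM, 1.46% of the 12755 genes past the filter did so, and this share was not counted for genes below it. RA replicate 1, the deepest library, held the 0. Scaled to library size, the sums of 34 counts in RA+Dipy and 5 in RA give a ratio of 8.48, with a 95% exact binomial interval of 3.30 to 27.8 that covers counting error only. Without RA replicate 1 the ratio was 4.78. Fitted with no filter on low counts, Ccl5 had a log2 fold change of 2.82 (SE 0.77, unadjusted p = 0.00275, adjusted p = 0.833 in edgeR), where 0% of 18152 genes passed and 3.99% had an unadjusted p under 0.05.

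Cxcl5, a neutrophil attractant acting on Cxcr2, had 0.858, 0.258, 0.462 and 0.4 CPM in RA+Dipy, against 0.847, 0.819, 1.91 and 2.2 CPM in RA. RA+Dipy replicates 2 to 4 lay below all 4 RA libraries, and RA+Dipy replicate 1 lay just above the lower pair of RA libraries. The means were 0.495 ± 0.257 CPM in RA+Dipy and 1.44 ± 0.715 CPM in RA (SD, n = 4 each), from 42 counts in RA+Dipy and 141 in RA. The log2 fold change of Cxcl5 was -1.55 (SE 0.49, unadjusted p = 0.00993 in edgeR). It ran from -1.90 to -1.30 when any 1 library was left out and was -1.63 from the 6 libraries. Of the 5 genes of its class Cxcl5 alone was measured: Cxcl1 had 22 counts in RA+Dipy and 35 in RA, and Cxcl2, Cxcl3 and Cxcl15 had at most 3 counts in either group. Its receptor gene Cxcr2 had 11 counts in RA+Dipy and 3 in RA.

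**Figure D2:**
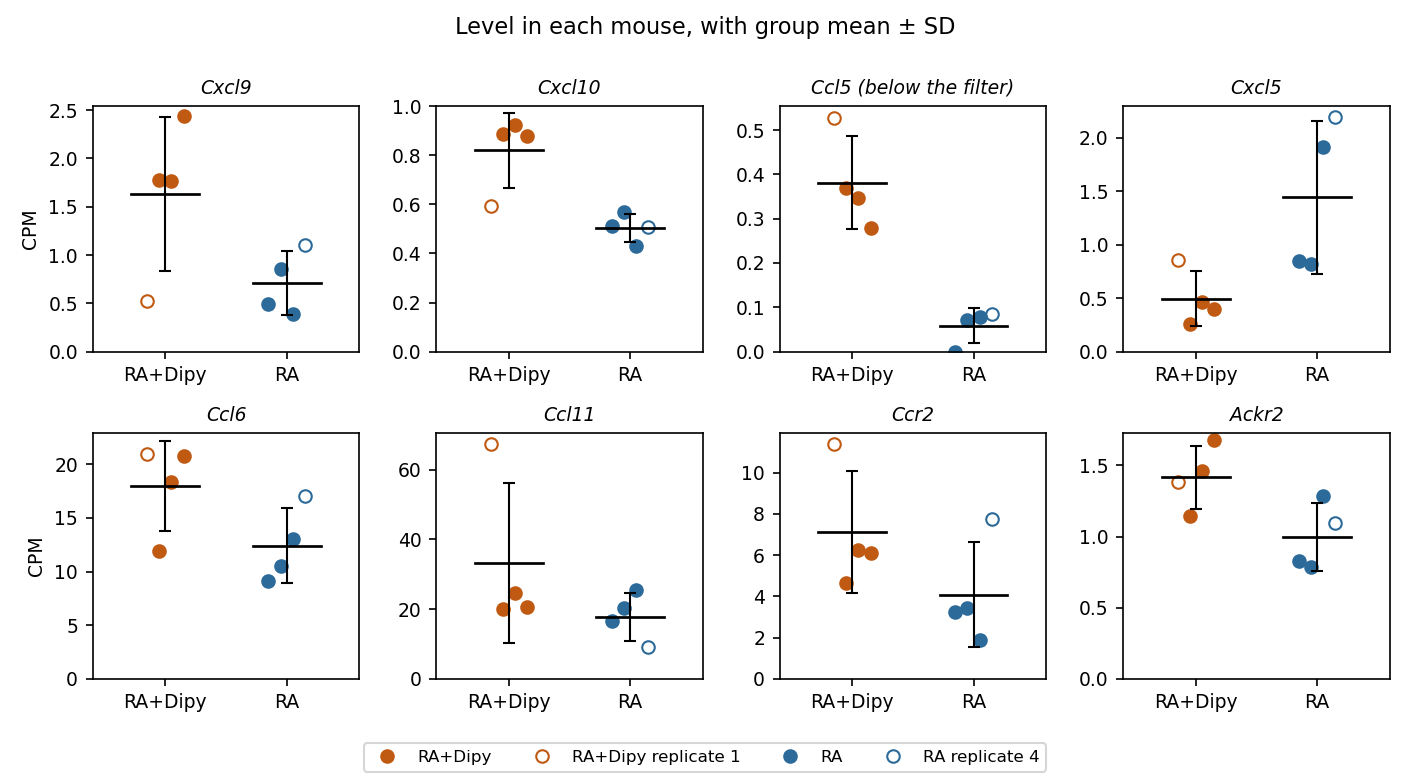
CPM in each library, with the group mean and SD as lines, for 8 members; each panel has its own linear axis from 0, and open circles are RA+Dipy replicate 1 and RA replicate 4. The groups do not overlap for Cxcl10 and Ccl5, and for Cxcl9, Cxcl5 and Ccr2 they do not overlap without the open circles.

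Among the 16 inflammatory CC ligands, 7 were measured, 5 with a log2 fold change above 0 and 2 below, with a median of 0.50; 0 had an unadjusted p under 0.05. Ccl11 (eotaxin), which attracts eosinophils through Ccr3, had 67.4, 19.9, 24.6 and 20.7 CPM in RA+Dipy, against 16.5, 20.2, 25.5 and 9.04 CPM in RA. RA+Dipy replicate 1 lay far above the rest, RA replicate 4 below them, and the other 6 libraries overlapped. Its log2 fold change was 0.89 (SE 0.46, unadjusted p = 0.0792 in edgeR), 0.28 without RA+Dipy replicate 1 and 0.08 from the 6 libraries.

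Ccl6, a rodent CC ligand made by macrophages, had 21.0, 11.9, 18.3 and 20.7 CPM in RA+Dipy, against 9.1, 10.5, 13.0 and 17.1 CPM in RA. RA+Dipy replicates 1, 3 and 4 lay above all RA libraries, and RA+Dipy replicate 2 lay among them. The log2 fold change was 0.54 (SE 0.28, unadjusted p = 0.084 in edgeR) and 0.66 from the 6 libraries, in which p was 0.0145. Its neighbour Ccl9, 9.2 kb away on chromosome 11 and also a rodent ligand of Ccr1, averaged 11.6 ± 5.72 CPM in RA+Dipy and 9.71 ± 5.78 CPM in RA (SD, n = 4 each), a log2 fold change of 0.26 (SE 0.45).

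Ccl2, the monocyte attractant acting on Ccr2, had 2.44, 0.738, 0.616 and 0.72 CPM in RA+Dipy, against 0.689, 0.855, 0.664 and 0.93 CPM in RA. The 1 high value was that of RA+Dipy replicate 1, and the log2 fold change of 0.50 became -0.16 without it. Ccl8, which acts on Ccr8 in mice, had 5.28, 0.997, 4.39 and 6.72 CPM in RA+Dipy, against 0.552, 2.49, 0.82 and 7.61 CPM in RA. The highest Ccl8 value was that of RA replicate 4, and the log2 fold change of 0.67 (SE 0.80) became 1.80 without it and 0.29 without RA replicate 1. Ccl7, another Ccr2 ligand, and Ccl24, another Ccr3 ligand, had log2 fold changes of -0.29 (SE 0.72) and -0.30 (SE 0.58). Both were highest in RA replicate 4, at 2.79 CPM for Ccl7 and 10.1 CPM for Ccl24, and their log2 fold changes became 0.68 and 0.47 without it.

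Of the 12 homeostatic ligands 7 were measured, 4 with a log2 fold change above 0 and 3 below, with a median of 0.24, and 0 had an unadjusted p under 0.05. Cxcl12, which holds leukocytes and progenitor cells in place through Cxcr4, had 76.8, 83.7, 83.1 and 80.5 CPM in RA+Dipy, against 68.2, 84.7, 76.1 and 45.9 CPM in RA. The groups overlapped, the lowest value was that of RA replicate 4, and the log2 fold change of 0.24 (SE 0.24) became 0.099 without it and 0.12 in the 6 libraries.

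Cxcl14, a ligand made by epithelium and stroma, had 37.9, 78.4, 58.0 and 58.3 CPM in RA+Dipy, against 70.6, 60.9, 65.5 and 62.8 CPM in RA. RA+Dipy replicates 1 and 2 held the lowest and the highest value, and the log2 fold change of -0.16 (SE 0.26) became -0.0016 without RA+Dipy replicate 1, -0.34 without RA+Dipy replicate 2 and -0.011 in the 6 libraries. Cxcl13, which attracts B cells through Cxcr5, had 0.66, 0.443, 0.77 and 2.16 CPM in RA+Dipy, against 0.374, 1.53, 0.351 and 0.0845 CPM in RA. Single libraries set that difference: the log2 fold change of 0.72 (SE 0.72) became 0.02 without RA+Dipy replicate 4 and 1.74 without RA replicate 2.

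The remaining homeostatic ligands spread widely within groups. Ccl21a, which guides dendritic and T cells into lymphatics, ran from 7.02 to 18.6 CPM in RA+Dipy and from 5.41 to 27.4 CPM in RA, with a log2 fold change of -0.14 (SE 0.53). Its copies Ccl21b and Ccl21d had 0 counts, and reads are hard to assign between such near-identical genes, so its level is uncertain. The same holds for Ccl27a, whose copy Ccl27b had 0 counts. Ccl27a, a Ccr10 ligand, had 8.25, 2.92, 2.42 and 2.28 CPM in RA+Dipy, against 4.81, 2.88, 4.18 and 4.9 CPM in RA. Its log2 fold change of -0.09 became -0.72 without RA+Dipy replicate 1 (unadjusted p = 0.024 in edgeR). Ccl25, the thymic and gut ligand of Ccr9, and Ccl28, a mucosal ligand of Ccr10, had log2 fold changes of 0.27 (SE 0.34) and 0.67 (SE 0.76). Both were highest in RA+Dipy replicate 1, at 11 CPM for Ccl25 and 1.98 CPM for Ccl28, and the log2 fold changes became -0.08 and -0.09 without it.

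The 2 membrane-anchored ligands were both measured. Cxcl16, a scavenger receptor and Cxcr6 ligand of macrophages, had 5.02, 1.96, 3.19 and 3.08 CPM in RA+Dipy, against 2.72, 2.21, 3.01 and 2.2 CPM in RA, a log2 fold change of 0.37 (SE 0.31). The groups overlapped, and the value from the 6 libraries was 0.06. Cxcl16 shares 552 exon bases with Zmynd15 on the opposite strand. Cx3cl1 (fractalkine), an endothelial ligand of Cx3cr1, averaged 3.28 ± 0.974 CPM in RA+Dipy and 3.25 ± 0.859 CPM in RA (SD, n = 4 each), a log2 fold change of 0.03 (SE 0.31).

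Most of the 11 CC receptors were below the filter, and 0 had an unadjusted p under 0.05 over the 8 libraries. Ccr2, the receptor that brings monocytes out of bone marrow and into tissue, had 11.4, 4.65, 6.27 and 6.12 CPM in RA+Dipy, against 3.25, 3.45, 1.87 and 7.78 CPM in RA. All RA+Dipy libraries lay above RA replicates 1 to 3, and RA replicate 4 lay above 3 of the 4 RA+Dipy libraries. The log2 fold change of Ccr2 was 0.82 (SE 0.44, unadjusted p = 0.0932 in edgeR), 0.51 without RA+Dipy replicate 1, 1.32 without RA replicate 4, and 0.99 from the 6 libraries (unadjusted p = 0.00318).

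Ccr1, a myeloid receptor, averaged 0.475 ± 0.101 CPM in RA+Dipy and 0.419 ± 0.119 CPM in RA (SD, n = 4 each), a log2 fold change of 0.10 (SE 0.36).

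Cxcr4 and Cx3cr1 were the measured receptors among the 7 of the CXC and CX3C classes. Cxcr4, the signalling receptor of Cxcl12, averaged 1.97 ± 0.392 CPM in RA+Dipy and 2.05 ± 0.398 CPM in RA (SD, n = 4 each), a log2 fold change of -0.05 (SE 0.28). Cx3cr1, carried by monocytes and resident macrophages, ran from 0.36 to 2.64 CPM in RA+Dipy and from 0.273 to 4.39 CPM in RA. Its highest values were those of RA+Dipy replicate 1 and RA replicate 4, and the log2 fold change of -0.17 (SE 0.85) became 1.08 without RA replicate 4.

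All 4 atypical receptors were measured, and 0 had an unadjusted p under 0.05. Ackr2, which clears inflammatory CC ligands, had 1.39, 1.14, 1.46 and 1.68 CPM in RA+Dipy, against 0.827, 0.783, 1.29 and 1.1 CPM in RA. RA+Dipy replicates 1, 3 and 4 lay above all RA libraries and RA+Dipy replicate 2 lay below 1 of them. Its log2 fold change was 0.52 (SE 0.30, unadjusted p = 0.118 in edgeR) and 0.59 from the 6 libraries.

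Ackr4, which clears Ccl21a and Ccl25, had 0.462, 0.554, 0.962 and 0.88 CPM in RA+Dipy, against 0.433, 0.285, 0.703 and 0.676 CPM in RA, a log2 fold change of 0.50 (SE 0.41). It was 0.32 without RA+Dipy replicate 3, 0.29 without RA replicate 2 and 0.78 from the 6 libraries. The groups overlapped, and Ackr4 shares 479 exon bases with Acad11 on the opposite strand. Ackr3, which takes up Cxcl12, had 14.0, 19.7, 23.9 and 23.9 CPM in RA+Dipy, against 22.7, 21.0, 20.5 and 5.49 CPM in RA. RA replicate 4 was the low library, and the log2 fold change of 0.22 (SE 0.40) became -0.06 without it. Ackr1, which presents ligands on venular endothelium, averaged 3.68 ± 0.621 CPM in RA+Dipy and 3.99 ± 1.38 CPM in RA (SD, n = 4 each), a log2 fold change of -0.10 (SE 0.29). It shares 361 exon bases with Cadm3 on the same strand.

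Divided by exon length, Cxcl14 stood at 31.8 ± 9.05 CPM per kb in RA+Dipy and 35.6 ± 2.31 in RA, the highest mean over the 8 libraries. Ccl11 followed at 30.6 ± 21.2 CPM per kb in RA+Dipy and 16.4 ± 6.38 in RA. Its neighbours in that order, Cxcl14 and Ccl21a (12.5 ± 6.14 CPM per kb in RA+Dipy and 13.9 ± 11.8 in RA), lay within 1 SD of it in at least 1 group. Cxcl12 came next at 9.91 ± 0.382 CPM per kb in RA+Dipy and 8.41 ± 2.04 in RA, then Ccl6 at 10.02 ± 2.35 CPM per kb in RA+Dipy and 6.92 ± 1.95 in RA. The receptor with the highest mean was Ackr3, at 6.08 ± 1.4 CPM per kb in RA+Dipy and 5.21 ± 2.39 in RA. All of these are SDs over 4 libraries. Cxcl9 and Cxcl10 were among the low members, at 0.54 ± 0.265 and 0.365 ± 0.0677 CPM per kb in RA+Dipy, against 0.235 ± 0.109 and 0.224 ± 0.0255 in RA.

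**Figure D3:**
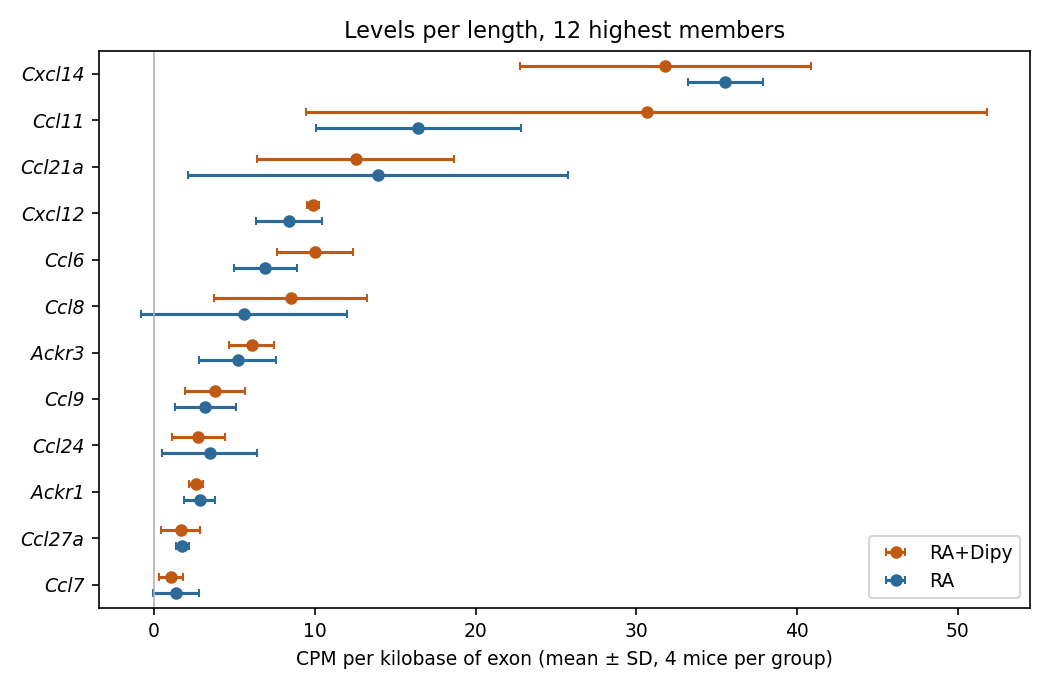
Level per kilobase of exon, mean and SD over 4 libraries, for the 12 members with the highest mean, with RA+Dipy above RA. Cxcl14 (31.8 in RA+Dipy, 35.6 in RA) and Ccl11 (30.6 in RA+Dipy, 16.4 in RA) lead, and the SD ranges of the groups overlap for all 12 genes shown.

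Summed over the 37 ligands, the libraries held 290.5, 231.3, 233.2 and 230.3 CPM in RA+Dipy, against 202.6, 212.5, 222.9 and 223.8 CPM in RA. Every RA+Dipy sum lay above every RA sum, the nearest being 230.3 and 223.8 CPM, and this was not tested. Class sums overlapped: inflammatory CC ligands had 43.9 to 126 CPM in RA+Dipy and 35.7 to 67.1 CPM in RA. Homeostatic ligands had 155 to 178 CPM in RA+Dipy and 146 to 162 CPM in RA. In RA+Dipy replicate 1, Ccl11 held 67.4 CPM of the ligand sum. Over the 22 receptors the sums were 38.3, 35.5, 42.6 and 41.3 CPM in RA+Dipy, against 36.3, 32.8, 31.9 and 30.0 CPM in RA, and here RA+Dipy replicate 2 lay below RA replicate 1. Cxcl12, Cxcl14 and Ccl11 made up 62.7% to 78.7% of the ligand counts in RA+Dipy and 52.6% to 78.0% in RA. Ackr3 made up 36.6% to 57.8% of the receptor counts in RA+Dipy and 18.3% to 64.3% in RA, and Ccr2 13.1% to 29.8% in RA+Dipy and 5.87% to 25.9% in RA.

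Of the 31 members below the filter, 7 had 0 counts in all 8 libraries: Ccl21b, Ccl21d, Ccl27b, Ccr6, Ccr8, Cxcl3 and Cxcr1. A count of 0 allows up to 3 counts, which is 0.0591 CPM in RA replicate 1 and 0.254 CPM in RA replicate 4. Another 9 had under 10 counts in all, and 15 had 10 or more. Among these 15, the counts of the Ccr2 ligand Ccl12 were 26 in RA+Dipy and 9 in RA, a ratio of 3.60 after scaling to library size (95% interval 1.64 to 8.74). RA+Dipy replicate 1 held 13 of the 26 and RA replicate 4 held 5 of the 9; the ratio was 2.15 without RA+Dipy replicate 1, 2.28 without RA replicate 1 and 7.28 without RA replicate 4. Cxcr3, the receptor of Cxcl9 and Cxcl10, had 25 counts in RA+Dipy and 12 in RA, a ratio of 2.60 (1.26 to 5.68). Ccr10 ran the other way, with 18 counts in RA+Dipy and 47 in RA, a ratio of 0.478 (0.261 to 0.838), and 26 of the 47 came from RA replicate 1; the ratio was 0.602 without that library and 0.258 without RA+Dipy replicate 3. Ccl5 is given above. The ratio was 3.74 for Ccl17 (1.29 to 13.2), 2.32 for Ccr3 (1.17 to 4.80) and 4.57 for Cxcr2 (1.21 to 25.5). For the rest the interval included 1. Their ratios were 2.18 for Ccl4, 1.39 for Ccr7, 1.09 for Cxcr6, 0.960 for Ccr9, 0.907 for Cxcr5, 0.784 for Cxcl1, 0.680 for Ccl22 and 0.641 for Ccl19. These intervals cover counting error only, not the spread between mice, and the members concerned are not measured by the rule used here.

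Most ligands were measured without the main receptor listed for them. Atypical receptors, all measured, were listed for Cxcl12 alone. Of 18 measured ligands with a known main receptor in mice, 6 (Cxcl12, Cx3cl1, Ccl2, Ccl7, Ccl6 and Ccl9) had that receptor past the filter and 12 did not. For Cxcl12, both Cxcr4 and Ackr3 were measured. For Ccl11 and Ccl24 the receptor gene Ccr3 had 26 counts in RA+Dipy and 14 in RA, for Ccl21a the receptor gene Ccr7 had 10 in RA+Dipy and 9 in RA, and for Ccl8 the receptor gene Ccr8 had 0 in RA+Dipy and 0 in RA.

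In the genome (GRCm38, GENCODE vM21), 37 members fell into 10 groups of neighbours with at most 250 kb between them. Ccl2, Ccl7, Ccl11, Ccl12, Ccl8 and Ccl1 lay at chr11:82035571-82305690, with 3 of 4 measured genes above 0 in log2 fold change. Ccl5, Ccl9, Ccl6, Ccl3 and Ccl4 lay at chr11:83525778-83664683, with both measured genes above 0. Over all genes, 52.2% were above 0. Without RA+Dipy replicate 1, Ccl2 in the first group and Ccl9 in the second were below 0 (-0.16 and -0.092). Cxcl5 lay with Cxcl3, Cxcl15, Cxcl1 and Cxcl2 at chr5:90759360-90905938, and was the measured one, below 0. Ccl21a, Ccl24 and Cx3cr1, each the measured one of its group, were also below 0, and Cx3cl1, likewise alone in its group, was above 0.

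Markers of leukocytes were read beside these values. Of 16 macrophage markers, all measured, 14 had a log2 fold change above 0 (52.2% of all genes did), with a median of 0.62. An unadjusted p under 0.05 was found for 4 of them, all higher, against 1.68% of all genes in that direction, and 0 passed adjustment in edgeR. Their summed level ran from 192 to 392 CPM in RA+Dipy and from 142 to 343 CPM in RA. Per library it was 392, 192, 356 and 341 CPM in RA+Dipy replicates 1 to 4. In RA replicates 1 to 4 it was 142, 214, 210 and 343 CPM. RA replicate 4 was thus the highest RA library in this sum, as for Ccr2 and Ccl6. In that library C1qa, C1qb and C1qc held 127, 46.5 and 44.8 CPM of the sum. Cd68, Mertk, Fcgr1, Itgam and Aif1 were also highest there among RA libraries. Lyz2, Mrc1, Csf1r, Cd163, Adgre1, Mpeg1, Lyve1 and Timd4 were not. The part of macrophages in the Ccr2 and Ccl6 values was not tested.

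Of 11 T and NK cell markers in the tables, 2 were measured. The summed level of these markers was 1.45 to 3.04 CPM in RA+Dipy and 1.64 to 3.13 CPM in RA, with the measured Cd3e at a log2 fold change of -0.51 and the measured Cd2 at 0.18. Below the filter, Cd4 had 44 counts over the 8 libraries, at 0.2 to 0.462 CPM in RA+Dipy and 0.0985 to 0.169 CPM in RA. The defining markers Cd3d, Cd3g and Cd8a had 12, 9 and 9 counts. Nkg7, Gzma, Klrb1c, Ncr1 and Cd8b1 had 12, 12, 11, 6 and 6. The highest CPM was in an RA+Dipy library for Cd8a, Nkg7, Gzma, Klrb1c and Ncr1, and in an RA library for Cd3d, Cd3g and Cd8b1. All of these below the filter are treated as not measured. Of 10 neutrophil markers 3 were measured, all with a log2 fold change above 0, and the sum was 1.81 to 4.69 CPM in RA+Dipy and 1.21 to 3.63 CPM in RA; below the filter, S100a8 had 73 counts and Retnlg 59 over the 8 libraries. The defining marker Ly6g had 2 counts, both in RA replicate 4, and 0 in the other 7 libraries. The part of these cells in the Cxcl9, Cxcl10 and Cxcl5 values was not tested. Of 10 endothelial markers 6 were above 0 (median 0.02), and of 6 lymphatic endothelial markers 5 were (median 0.13). Among 10 markers of fibro-adipogenic progenitors, stromal cells of muscle, 9 were above 0 (median 0.28), with sums of 2273 to 2833 CPM in RA+Dipy and 1656 to 2619 CPM in RA. Adipocyte markers had 5 of 6 above 0 (median 1.12) and Schwann cell markers 0 of 7 (median -0.88). At an unadjusted p under 0.05 in edgeR were 2 adipocyte markers and 1 fibro-adipogenic progenitor marker, all higher, against 1.68% of all genes. So were 3 Schwann cell markers, all lower, against 2.15% of all genes in that direction. The adipocyte sum was 810 CPM in RA+Dipy replicate 4 and 171 to 259.9 CPM in the other RA+Dipy libraries, against 523 CPM in RA replicate 4 and 110 to 181 CPM in the other RA libraries. The Schwann cell sum was 174 to 283 CPM in RA+Dipy and 243 to 559 CPM in RA, with the highest value in RA replicate 4.

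Genes around the chemokine system were counted from lists that the name rule does not reach. Of 10 related ligands, receptors and binding partners 8 were measured, 5 above 0 in log2 fold change and 3 below (median 0.15), with 0 at an unadjusted p under 0.05. Mif, a cytokine that also binds Cxcr4, had 92.3, 53.2, 46.8 and 37.2 CPM in RA+Dipy, against 78.6, 43.8, 59.2 and 304 CPM in RA. RA replicate 4 alone stood out, and the log2 fold change of -1.08 (SE 0.59) became -0.06 without it. Xcr1, a receptor of cross-presenting dendritic cells, had 1.06, 0.332, 0.577 and 0.48 CPM in RA+Dipy, against 1.14, 0.641, 0.781 and 1.18 CPM in RA. RA+Dipy replicate 1 lay among the RA libraries. Its log2 fold change of -0.65 (SE 0.42) became -0.9998 without RA+Dipy replicate 1 and -0.90 in the 6 libraries, with an unadjusted p of 0.0277 and 0.0371 in edgeR.

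Of 38 genes of receptor signalling 34 were measured, 20 above 0 and 14 below (median 0.23). At an unadjusted p under 0.05 there were 2 with higher means in RA+Dipy, Pik3cg and Lyn, against 1.68% of all genes in that direction, and 1 with a lower mean, Rasgrp2, against 2.15%. Pik3cg, the phosphoinositide 3-kinase that G protein beta-gamma subunits switch on in leukocytes, had 1.72, 1.14, 1.42 and 1.44 CPM in RA+Dipy, against 0.295, 1.03, 0.664 and 1.01 CPM in RA. All 4 RA+Dipy libraries lay above all 4 RA libraries for Pik3cg and for Lyn, as they did for 1.46% of all genes tested. The log2 fold change of Pik3cg was 0.97 (SE 0.41). Rasgrp2, an activator of the integrin switch Rap1, had 8.91, 8.6, 6.39 and 8.16 CPM in RA+Dipy, against 15.6, 8.4, 12.1 and 22.7 CPM in RA. RA replicate 2 lay among the RA+Dipy libraries, and the log2 fold change was -0.87 (SE 0.31), -0.57 without RA replicate 4 and -0.64 from the 6 libraries. The adjusted p in edgeR was 0.882 for both Pik3cg and Rasgrp2. In the library-weighted limma-voom fit, which passed 1.04% of all genes, the adjusted p was 0.0485 for Pik3cg and 0.0462 for Rasgrp2.

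All 18 genes that control chemokine transcripts or proteins were measured, 10 above 0 and 8 below (median 0.04). Irf3, a transcription factor upstream of type I interferon, had 11.8, 16.4, 14.7 and 14.7 CPM in RA+Dipy, against 27.0, 14.9, 17.6 and 37.4 CPM in RA. RA replicate 2 lay among the RA+Dipy libraries, and the log2 fold change of -0.75 (SE 0.31) was the 1 in this list with an unadjusted p under 0.05 in edgeR, against 2.15% of all genes in that direction. It was -0.45 without RA replicate 4 and -0.37 from the 6 libraries, with an unadjusted p of 0.0813 and 0.102. Nfkb2, a subunit of NF-kappaB, had a log2 fold change of -0.88 (SE 0.47). Its level was 67.0 CPM in RA replicate 4 against 12.2 to 19.1 CPM in RA+Dipy and 15.3 to 21.4 CPM in the other RA libraries, and without RA replicate 4 its log2 fold change was -0.10.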

How the data were processed

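RNA was sequenced from 8 gastrocnemius samples, 4 per group. Per the submitters' processing notes and the series' design text, the 100-nt single-end reads went through fastp 0.20.0 for trimming, STAR 2.7.3a for alignment to GRCm38.p6, and HTSeq for counting without regard to strand. The authors deposited raw counts per protein-coding gene symbol for each library, with no normalization. The labels name the TruSeq system and the design text a directional NEBNext kit. No source used here names the annotation release or a batch. The 24 symbols found on more than 1 line had their counts added, giving 21833 symbols. Counting without strand cannot separate opposite-strand genes, which touches 6 of the measured members, and Ackr1 overlaps a gene on its own strand.

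Genes were filtered with filterByExpr (minimum count of 10; 12755 kept, 9078 removed), scaled by TMM and compared with the two-sided quasi-likelihood test of edgeR 4.0.16 (R 4.3.3, robust estimates, group as the sole term), with Benjamini-Hochberg adjustment over all genes tested and a threshold of 0.05. The code was tested on simulated data. CPM values use the TMM factors. limma 3.58.1 and DESeq2 1.42.0 served for other tests. Other settings were DESeq2 or upper-quartile scaling, no filter, a block for the replicate number, a minimum mean of 1 CPM, fits without robust estimates, and leaving out each library in turn. A fit without RA+Dipy replicate 1 and RA replicate 4 was added after seeing the data. The members, the gene lists and the tests were chosen with earlier results of these data known. By rule, values in every library were given for the 12 measured members with the smallest p, for those whose groups did not overlap and for the 3 with the highest mean, and the 2 genes with the smallest p were named from each other gene list that is not a marker list; further members are shown by library where 1 library sets the value. Values of 1 measured member are not reported here. Exon lengths and positions come from GENCODE vM21, which held 58 of the 59 members, and promoters from RefSeq. Lengths count all annotated exon bases of a gene. Libraries of a group all differed from each other beyond sampling noise (smallest chi-square per degree of freedom 27.7). The design text counts 4 mice per group, and each library was taken as 1 mouse.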

Additional observations from a re-analysis of the deposited data

Results flagged for a closer look

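In 9 of the 54 sets of 4 values examined (27 members in each group), 1 library lay far from the other 3 of its group by Dixon's criterion, which chance alone passes in about 1 in 20 sets. All 9 were RA+Dipy replicate 1 or RA replicate 4. RA+Dipy replicate 1 was the highest of its group for Ccl11 (67.4 CPM), Ccl2 (2.44 CPM) and Ccl27a (8.25 CPM), and the lowest for Cxcl10 (0.594 CPM). RA replicate 4 was the highest of its group for Ccl21a (27.4 CPM), Ccl24 (10.1 CPM), Ccl7 (2.79 CPM) and Ccl9 (18.3 CPM), and the lowest for Ackr3 (5.49 CPM).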

How the results depend on the processing

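Counts of genes at an unadjusted p under 0.05 moved most. Over all genes, against 488, they were 165 with the replicate block, 740 with DESeq2, 3638 with library-weighted limma-voom, 1461 from the 6 libraries, and 178 to 1187 with any 1 library left out (lowest without RA+Dipy replicate 4, highest without RA replicate 2). For the members, against 3, they were 1 at a mean of at least 1 CPM, 10 with library weights, 7 from the 6 libraries, 2 with the block (Cxcl5 and Cxcl9), and 1 to 7 with any 1 library left out. The 7 came without RA replicate 4. The 1, which was Cxcl5, came without RA+Dipy replicate 3, RA+Dipy replicate 4, RA replicate 1 or RA replicate 3. Past adjustment, library weights gave 133 genes and 2 members; 0 passed elsewhere. The members' median log2 fold change ran from 0.077 to 0.53 with any 1 library left out (lowest without RA+Dipy replicate 1, highest without RA replicate 4) and from 0.16 to 0.32 in the other settings.

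The log2 fold change kept its sign in every setting run for 14 of the 28 members, among them Cxcl9, Cxcl10, Cxcl5, Ccr2, Ccl6, Ccl11 and Ackr2. It turned with library weights for Ackr1 (0.22), Ccl2 (-0.041), Ccl21a (0.25), Ccl25 (-0.20), Ccl28 (-0.063), Ccr1 (-0.22), Cx3cr1 (0.79) and Nfkb2 (0.021). It turned in the 6 libraries for Ackr1 (0.17), Ccl2 (-0.077), Ccl21a (0.26), Ccl24 (0.0088), Ccl25 (-0.22), Ccl28 (-0.36), Ccl7 (0.15), Ccr1 (-0.13), Cx3cr1 (0.47), Cxcr4 (0.019) and Nfkb2 (0.0062). For Ccl21a and Cx3cr1 it was 0.089 and 0.48 with the block and 0.089 and 0.33 with limma-voom, and for Cxcr4 0.0073 with upper-quartile factors. With 1 library left out, it spanned 0 for Ackr1 (-0.22 to 0.15), Ackr3 (-0.060 to 0.37), Ccl2 (-0.16 to 0.71), Ccl21a (-0.52 to 0.65), Ccl24 (-0.75 to 0.47), Ccl25 (-0.084 to 0.49), Ccl27a (-0.72 to 0.10), Ccl28 (-0.086 to 1.25), Ccl7 (-0.80 to 0.68), Ccl9 (-0.092 to 0.78), Ccr1 (-0.020 to 0.25), Cx3cl1 (-0.11 to 0.21), Cx3cr1 (-0.75 to 1.08) and Cxcr4 (-0.18 to 0.082). The cause was not tested.

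No source used here says that the replicate numbers pair mice. Deviations of same-numbered libraries correlated at -0.22, 0.12, 0.17 and -0.29, and 0 of 4 libraries matched their own number best. Numbers 1 and 4 each include a library that stands apart, so these values cannot decide whether mice were paired. Depth limits the low members: most of the 31 below the filter could not be compared, and Cxcl9, Cxcl10 and Cxcl5 rest on 42 to 163 counts per group.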
